A study of Mus musculus with 69 samples.

Results

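Egr1, Egr2, Egr3, Ier2, Ier3, Zfp36, Klf6 and Myc, 8 immediate early genes, were followed in mouse dorsal skin after TPA, a skin tumour promoter of the phorbol ester class whose receptor is protein kinase C. They were taken by gene symbol from 18820 genes with a probe set of their own on the Affymetrix array, and each of the 8 was represented by 1 probe set. The skin came from FVB/N mice, written FVB here, from Spret/Ei mice, written SPR, an inbred strain derived from Mus spretus, and from the F1 of the 2 strains. The mice were 8 weeks old and shaved before a dose of TPA in acetone, and untreated skin is the 0 h group of each strain. In FVB, 0, 2, 6, 12, 24, 48, 72, 168 and 1008 h were each covered by 3 arrays. For F1 there were 4 untreated arrays, then 1 (2 h), 2 (4, 6, 12, 24 and 72 h each), 3 (48 h), 1 (168 h) and 6 (1008 h). For SPR, pairs of arrays covered 0, 4, 12, 24, 48 and 1008 h, while 2 and 6 h rest on a single array. The labels place 66 of the 69 arrays, and the other 3 entered no comparison. No vehicle-treated group is among these samples, so acetone, shaving and, at 1008 h, age cannot be told apart from TPA. Whether each array comes from a separate animal is not stated, so p-values cover only array-to-array spread, part of which may be technical.

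Immediate early genes are transcribed within minutes of a stimulus because the proteins they need, among them serum response factor, Ets-type ternary complex factors and CREB, are already present in the cell. Many of their messengers are short-lived, so that a single stimulus gives a pulse. Egr1, Egr2 and Egr3 encode zinc-finger transcription factors that bind GC-rich sites, and Klf6 encodes a Krüppel-like zinc-finger factor. Myc encodes a transcription factor that pairs with Max and drives ribosome production and growth. Zfp36 encodes tristetraprolin, which binds AU-rich elements in the messengers of cytokines and marks them for decay. Ier3 encodes a stress-response protein linked to cell survival, and Ier2 a nuclear protein whose role is less well defined.

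RefSeq promoter windows (GRCm38.p6) were matched by gene identifier for 4 of the 8, Egr2, Ier3, Klf6 and Zfp36. They are shown because they hold letters that known regulators of immediate early genes bind. Capitals mark matches, on either strand, to a CArG box (the serum response factor site), to TGACGT (the core of the CREB site), to GCGGGGGCG (an Egr site), to a kappaB site or to CACGTG (an E-box). For Egr2, a gene with several annotated starts, 30 bases are shown at chr10:67537793-67537822 (+ strand), positions -76 to -47 relative to 1 of the starts. The others are the 150 bases before the start, at chr17:35821563-35821712 (+ strand) for Ier3, chr13:5861339-5861488 (+ strand) for Klf6 and chr7:28379229-28379378 (- strand) for Zfp36.
Egr2: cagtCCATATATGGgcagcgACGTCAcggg
Ier3: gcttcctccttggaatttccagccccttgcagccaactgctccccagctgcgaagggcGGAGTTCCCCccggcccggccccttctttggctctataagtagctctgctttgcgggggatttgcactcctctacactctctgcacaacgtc
Klf6: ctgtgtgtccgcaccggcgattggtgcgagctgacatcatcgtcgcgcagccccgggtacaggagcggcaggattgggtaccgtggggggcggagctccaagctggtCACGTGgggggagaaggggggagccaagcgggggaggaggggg
Zfp36: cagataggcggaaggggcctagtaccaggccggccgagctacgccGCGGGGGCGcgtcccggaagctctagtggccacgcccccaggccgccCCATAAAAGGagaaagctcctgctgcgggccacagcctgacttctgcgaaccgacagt
A CArG box was found in windows of Egr2 and Zfp36, and 1.63% of 32851 windows of 300 bases hold one. GCGGGGGCG, present in Zfp36, is held by 2.91% of windows, and TGACGT, present in Egr2, by 7.51%. The kappaB site of Ier3 is held by 8.46% of windows and the CACGTG of Klf6 by 7.15%, and a window at another Egr2 start holds both. GCGTGGGCG, TGACGTCA and TGAGTCA were searched as well and are in 0.612%, 1.79% and 5.2% of all windows. TGACGTCA contains TGACGT. GCGTGGGCG, TGACGTCA and TGAGTCA had no match in the 4 genes' windows; a match is a description of letters, not of a bound site.

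Values are RMA log2 values, so a difference of 1 is a 2-fold change, and levels of different genes, which come from different probes, were not set against each other. A gene was called changed in limma at a Benjamini-Hochberg adjusted p under 0.05 over all 18820 genes with a log2 change of at least 1 in size. Errors after ± are standard errors of that fit unless SD is written. Where arrays are said to lie above or below others, the share of all genes with that order was not counted. Counts of changes at an unadjusted p, or without the fold threshold, are for the 8 genes alone. No share of all genes was counted at those thresholds. FVB arrays form a labelled batch of their own and F1 and SPR arrays lie in 2 others, so changes were compared between strains and levels were not. In 2 arrays the range over genes was narrow: the SPR array labelled 12 h replicate 1 had an interquartile range of 1.39 and the F1 array labelled 72 h replicate 2 one of 2.39, against 3.40 or more in the other assigned arrays. Across the 0 h FVB arrays the mean of 11 liver transcripts ran from 5.32 to 8.57. Results of the 8 genes that rest on the 2 controls in which it was high, and the Myc target counts, are also given without them. That leaves a lone untreated FVB array. Counts of tristetraprolin messengers and cell type markers, and the similarities of genes, were not computed again without them. On treated FVB arrays this mean was 4.62 to 5.87 at 2 h, 6.39 to 7.61 at 6 h and 4.10 to 8.86 at 12 h. At 24 h it was 5.06 to 7.96 in FVB and 7.12 to 8.88 in F1, and at 1008 h in FVB it reached 7.27. Treated arrays rich in liver transcripts were not left out as a set, so their part in the changes was not tested. Markers of keratinocytes, the main cell of the epidermis, averaged 11.1 to 11.4 on the 0 h FVB arrays, 11.5 to 11.6 in F1 and 11.4 in SPR. In bulk skin, fewer cells of a type and less RNA per cell cannot be told apart.

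In FVB skin, 7 of the 8 genes were called higher at 2 h, the first time sampled, and at 24 h none was called. Without the fold threshold, the limma adjusted p was under 0.05 for all 8 at 2 h and for 2 at 24 h. The largest change at 2 h was that of Egr2, 5.55-fold, and the smallest of the called ones that of Ier2, 3.25-fold. Over all genes, 3.6% were called higher at 2 h. At 6 h, 5 of the 8 were still called (background 6.45%), and at 12 h 4 were (background 5.46%). Egr1, Zfp36 and Klf6 were not called at 6 h, while Egr2, Egr3, Ier3 and Myc were still called at 12 h.

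**Figure D1:**
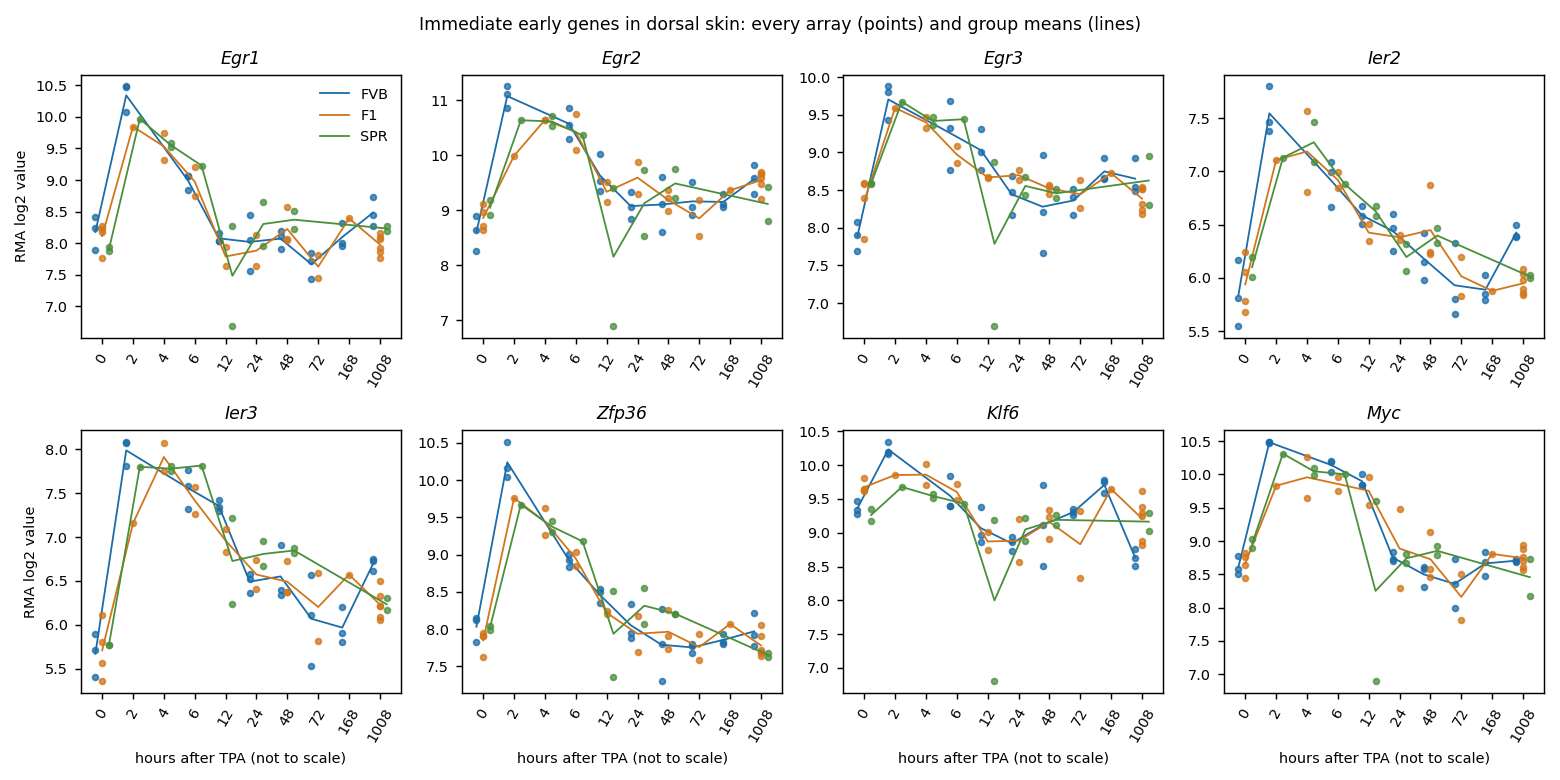
RMA log2 value (vertical axis) of each gene on every assigned array against hours after TPA (horizontal axis, evenly spaced, not to scale). Points are single arrays and lines join group means of FVB (blue), F1 (orange) and SPR (green). In FVB all 3 arrays at 2 h lie above all 3 at 0 h for each of the 8 genes, and 1 SPR array at 12 h lies below the other for all genes but Ier2.

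Among the zinc-finger factors, Egr1 read 8.41, 8.23 and 7.89 on the untreated FVB arrays, 10.5, 10.5 and 10.1 at 2 h, and 9.07, 8.84 and 9.07 at 6 h. The 2 h arrays lay above all the others and the 6 h arrays lay in between, with no overlap. Egr1 was raised by 2.16 ± 0.24 log2 units at 2 h (limma adjusted p = 6.22e-09) and its change at 6 h was 0.82 ± 0.24, below the fold threshold (adjusted p = 0.00965). At 12 h, Egr1 stood at 8.03, 8.16 and 8.04, within the untreated range. Egr2, which is best known from myelinating cells and lymphocytes and is also made in skin, read 8.90, 8.64 and 8.26 untreated, 11.1, 11.2 and 10.9 at 2 h, 10.9, 10.6 and 10.3 at 6 h, and 9.35, 10.0 and 9.54 at 12 h. Each treated array up to 12 h thus lay above each untreated one. The Egr2 changes were 2.47 ± 0.33, 1.97 ± 0.33 and 1.03 ± 0.33 at 2, 6 and 12 h (limma adjusted p = 4.87e-07, 1.64e-05 and 0.0205). Egr3 went from 7.91, 8.07 and 7.69 to 9.87, 9.80 and 9.43 at 2 h, and its changes were 1.81 ± 0.29, 1.37 ± 0.29 and 1.14 ± 0.29 (limma adjusted p = 1.11e-05, 0.000357 and 0.0032). For Egr3, too, the groups at 2, 6 and 12 h did not overlap with 0 h.

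Klf6 was the exception among the zinc-finger genes. It read 9.34, 9.28 and 9.47 untreated and 10.2, 10.3 and 10.2 at 2 h, with no overlap. The change of 0.87 ± 0.29, 1.83-fold, had a limma adjusted p of 0.0388 and stayed under the fold threshold; after centring arrays on their medians it was 1.05 and was called. At 6 h Klf6 had returned to 9.85, 9.40 and 9.39, overlapping the controls. At 1008 h it stood at 8.51, 8.63 and 8.75, below all untreated arrays, with a change of -0.73 that was not called (limma adjusted p = 0.0778), and against 168 h, when it read 9.79, 9.76 and 9.58, it fell by 1.08 on the log2 scale (limma adjusted p = 0.0104, 2.11-fold lower; background 2.79% lower). Without the 1008 h replicate 1 that fall missed the threshold, at an adjusted p of 0.0507.

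Zfp36, like Egr1, was called at 2 h and no longer at 6 h. It read 8.15, 8.12 and 7.82 untreated, 10.2, 10.5 and 10.0 at 2 h, 9.01, 8.93 and 8.84 at 6 h, and 8.35, 8.54 and 8.49 at 12 h. The rise at 2 h was 2.21 ± 0.21 (limma adjusted p = 5.1e-11), and at 6 h its change was 0.89 ± 0.21, below the fold threshold on the deposited scale and 1.02, called, after median centring. Between 2 and 6 h, Egr1 fell by 1.35 on the log2 scale and Zfp36 by 1.31 (limma adjusted p = 0.000244 and 3.4e-05), which are 2.54-fold and 2.49-fold reductions. They were the only 2 of the 8 called lower between these times, against 2.17% of all genes. Ier2 went down by 0.63 ± 0.19 (limma adjusted p = 0.0343, under the fold threshold), and the other 5 had differences between -0.34 and -0.68.

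Ier3 and Myc had the largest changes of the 8 at 12 h. Ier3 read 5.89, 5.72 and 5.41 untreated, 8.08, 8.07 and 7.80 at 2 h, 7.58, 7.77 and 7.32 at 6 h, and 7.34, 7.30 and 7.42 at 12 h. All treated arrays to 48 h lay above the untreated ones. The called rises of Ier3 were 2.31 ± 0.22, 1.88 ± 0.22 and 1.68 ± 0.22 at 2, 6 and 12 h (limma adjusted p = 9.45e-11, 1.46e-08 and 3.54e-07), and at 24 and 48 h its changes were 0.82 and 0.88 (adjusted p = 0.00998 and 0.00677), under the fold threshold. Myc went from 8.77, 8.57 and 8.50 to 10.47, 10.49 and 10.49 at 2 h, 10.2, 10.2 and 10.0 at 6 h and 9.85, 10.0 and 9.84 at 12 h, a stepwise decline with no overlap with 0 h. Its changes were 1.87 ± 0.31, 1.53 ± 0.31 and 1.28 ± 0.31 (limma adjusted p = 2.24e-05, 0.000216 and 0.00198). By 24 h Myc was back at 8.70, 8.72 and 8.83, a fall of 1.15 on the log2 scale from 12 h (limma adjusted p = 0.0399, 2.22-fold lower; background 0.399% lower). The 12 h and 24 h arrays of Myc did not overlap, but that call was lost when any 1 of their 6 arrays was left out, with adjusted p between 0.0899 and 0.162, and under 4 other settings, with adjusted p between 0.0507 and 0.0641.

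Ier2 read 6.17, 5.55 and 5.81 untreated, 7.46, 7.80 and 7.38 at 2 h, and 6.99, 7.09 and 6.67 at 6 h, so the 2 and 6 h arrays lay above all untreated ones and apart from each other. It rose by 1.70 ± 0.19 at 2 h and 1.07 ± 0.19 at 6 h (limma adjusted p = 8.32e-09 and 3.82e-05). At 12 and 24 h its changes were 0.74 and 0.60 (limma adjusted p = 0.00362 and 0.0312), under the fold threshold and without overlap with 0 h. The call at 6 h was lost without the 0 h replicate 2 (0.93) or the 6 h replicate 2 (0.98), both under the fold threshold. It was also lost, with a change of 0.74, without the 2 controls rich in liver transcripts. That setting leaves a lone untreated FVB array and so a larger error for each change, and a lost call there can come from either. Without the 2 controls rich in liver transcripts, 7 genes were still called at 2 h, but of the 4 called at 12 h only Ier3 was: the changes of Egr2, Egr3 and Myc were then 0.73, 1.12 and 1.13, with adjusted p = 0.366, 0.0773 and 0.102. The Egr2 call at 12 h was also lost after cyclic loess (0.92) and without the 12 h replicate 2 (0.84) or the 0 h replicate 3 (0.86), and the Egr3 call without the 12 h replicate 2 (just under the fold threshold).

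Between 24 and 168 h no change of the 8 genes was called in FVB, against 5.48%, 5.95%, 1.88% and 0.383% of all genes in either direction at 24, 48, 72 and 168 h. At an unadjusted p under 0.05 in limma the numbers of the 8 were 2, 1, 1 and 1. The percentages are for calls, and no share of all genes was counted at the unadjusted threshold. At 1008 h Ier3 was called again. Its arrays read 6.61, 6.73 and 6.75, above every untreated array, and the change was 1.02 ± 0.22 (limma adjusted p = 0.000793; background 4.22% higher). The call was lost without the 0 h replicate 3 (0.89), without the 1008 h replicate 3 (just under the threshold) and without both liver-rich controls (0.80, adjusted p = 0.119). Egr2 and Ier2 had changes of 0.96 and 0.58 at that time (adjusted p = 0.0377 and 0.0282), under the fold threshold. Beside them, the 6 measured T lymphocyte markers were all called lower at 1008 h, with array means of 5.93 to 6.10 against 7.10 to 8.06 at 0 h. Neutrophil markers averaged 7.23 to 7.68 against 5.58 to 5.61 (3 of 7 called higher, 2 lower) and Langerhans cell markers 8.67 to 8.87 against 9.17 to 9.47 (1 of 5 higher, 2 lower). Over all genes, 4.22% were called higher and 3.92% lower at 1008 h. The part of these lists in the result was not tested. Tested over all 8 times at once, each of the 8 genes was called in FVB by the limma F test, as were 50.9% of all genes.

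**Figure D2:**
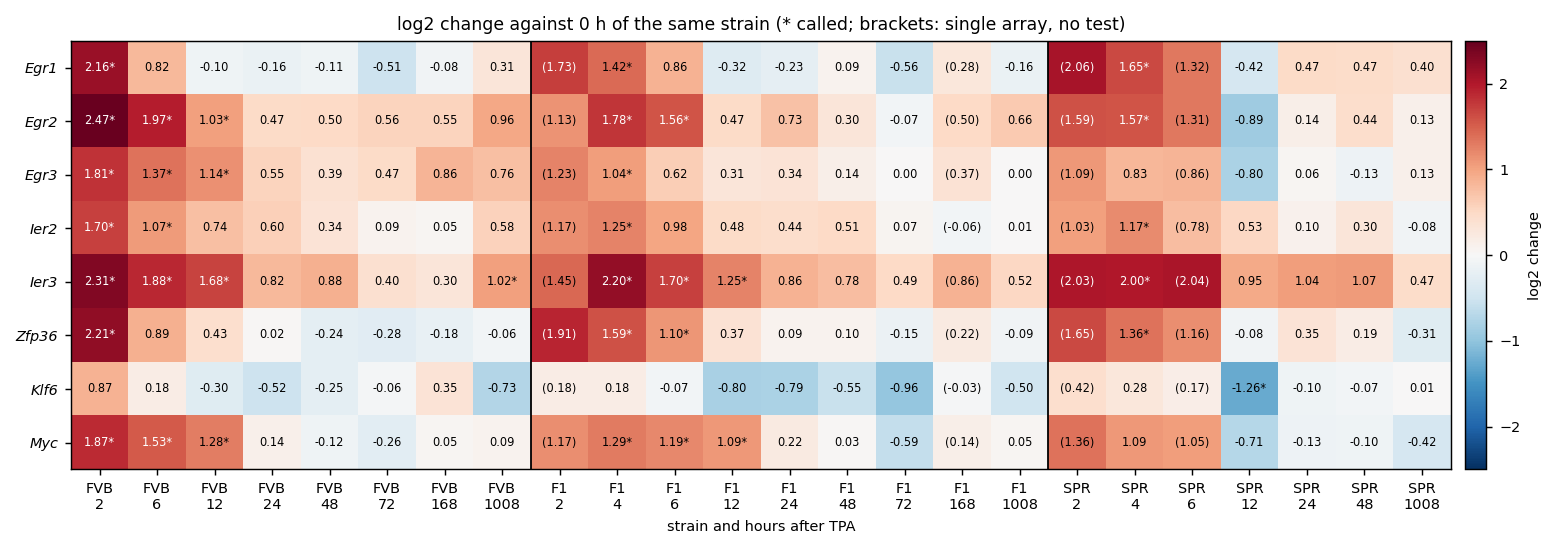
Log2 change against untreated skin of the same strain for the 8 genes (rows) at every time in FVB, F1 and SPR (columns), coloured from blue (lower) to red (higher). An asterisk marks a called change and brackets a time with a single array and no test; the asterisks lie at 2 to 12 h, apart from Ier3 in FVB at 1008 h, and Klf6 has none above 0.

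In F1 skin the same 7 genes as in FVB at 2 h were called higher at 4 h, the first time with more than 1 array (background 5.46%). Ier3 read 6.11, 5.36, 5.81 and 5.57 untreated and 7.75 and 8.07 at 4 h, a rise of 2.20 ± 0.23 or 4.59-fold (limma adjusted p = 2.57e-09). Egr2 read 9.12, 8.65, 8.97 and 8.71 untreated and 10.6 and 10.6 at 4 h, a rise of 1.78 ± 0.35 (limma adjusted p = 0.000203). Zfp36 went from 7.91, 7.63, 7.95 and 7.90 to 9.27 and 9.62, a rise of 1.59 ± 0.22 (limma adjusted p = 4.73e-07). In all 3 genes both treated arrays lay above the 4 untreated ones. Egr1 rose by 1.42 ± 0.26, Myc by 1.29 ± 0.33, Ier2 by 1.25 ± 0.20 and Egr3 by 1.04 ± 0.31, again without overlap (limma adjusted p = 5.07e-05, 0.00324, 1.1e-05 and 0.0111). Klf6 read 9.70 and 10.02 against 9.64, 9.81, 9.62 and 9.63, overlapping, with a change of 0.18 ± 0.31. The single F1 array at 2 h was above every untreated F1 array for all 8 genes, by between 0.18 (Klf6) and 1.91 (Zfp36) over their mean. On that array skeletal muscle markers averaged 9.81 against 5.36 to 8.23 untreated, and adipocyte markers 8.68 against 6.00 to 6.68. Keratinocyte markers averaged 10.9 against 11.5 to 11.6, while neutrophil and Langerhans cell markers lay within their untreated ranges. The part of these lists in the 2 h values was not tested.

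At 6 h in F1, Ier3, Egr2, Myc and Zfp36 were called (background 5.44%), with changes of 1.70, 1.56, 1.19 and 1.10. At 12 h Ier3 and Myc remained (background 2.48%): Ier3 read 7.09 and 6.83, a change of 1.25 ± 0.23, and Myc 9.97 and 9.54, a change of 1.09 ± 0.33 (limma adjusted p = 0.000284 and 0.0272). Both were among the 4 genes still called in FVB at 12 h. The Myc call at 12 h was lost without the 0 h replicate 2 or either 12 h array, with adjusted p from 0.0661 to 0.445. At 24, 48, 72 and 1008 h none of the 8 was called in F1, against 1.89%, 1.39%, 1.99% and 0.802% of all genes, and 4, 2, 3 and 3 of the 8 had an unadjusted p under 0.05 in limma. Klf6, at 8.74 and 9.004 at 12 h, 8.56 and 9.20 at 24 h, 9.24, 8.91 and 9.34 at 48 h and 9.33 and 8.33 at 72 h, lay below every untreated F1 array at these times. Its changes of -0.80, -0.79, -0.55 and -0.96 were not called, and the lowest array at 72 h is the narrow one. In the F test over times, 7 of the 8 were called in F1, against 26.7% of all genes, and Egr3 was not (adjusted p = 0.0805).

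Each F1 time from 4 to 12 h held 1 array of batch 2 and 1 of batch 3, and the size of the changes differed between them. Against the 2 untreated arrays of the same batch, the change at 4 h was larger in batch 3 than in batch 2 for 8 of 8 genes, with medians of 1.79 and 0.98. Ier2, for example, differed by 1.83 in batch 3 and 0.66 in batch 2, and Myc by 1.72 and 0.87. At 6 h it was again 8 of 8, with medians of 1.27 and 0.81, and at 12 h 6 of 8, with 0.51 and 0.23. The 8 comparisons at a time share the same arrays, and the share of all genes larger in batch 3 was not counted. For all of the 8 but Klf6 the untreated mean was lower in batch 3, as for Ier3 at 5.46 against 5.96. Of the 8 genes, Klf6 alone was below 0 in either batch at 4 or 6 h, at -0.14 in batch 2 and close to 0 in batch 3 at 6 h. Fitted on batch 2 alone, 1 of the 8 genes, Ier3, was called at 4 h and none at 6 or 12 h. Batch 2 holds both narrow arrays, and without them 4 were called at 4 h (Egr1, Egr2, Ier3 and Zfp36), 2 at 6 h (Egr2 and Ier3) and none at 12 h. In batch 3, 7, 6 and 2 of the 8 genes differed by at least 1 log2 unit at 4, 6 and 12 h, on 1 array each. In batch 2 the numbers were 4, 2 and 0, also on 1 array each. Without the 4 h replicate 2, the batch 3 array, calls at 4 h went from 7 to 4 (Egr3, Ier2 and Myc were lost), and without the 6 h replicate 2, also of batch 3, calls at 6 h went from 4 to 1 (Ier3). The Egr3 call at 4 h was also lost without the 0 h replicate 2 (0.89) and after cyclic loess (0.99).

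**Figure D3:**
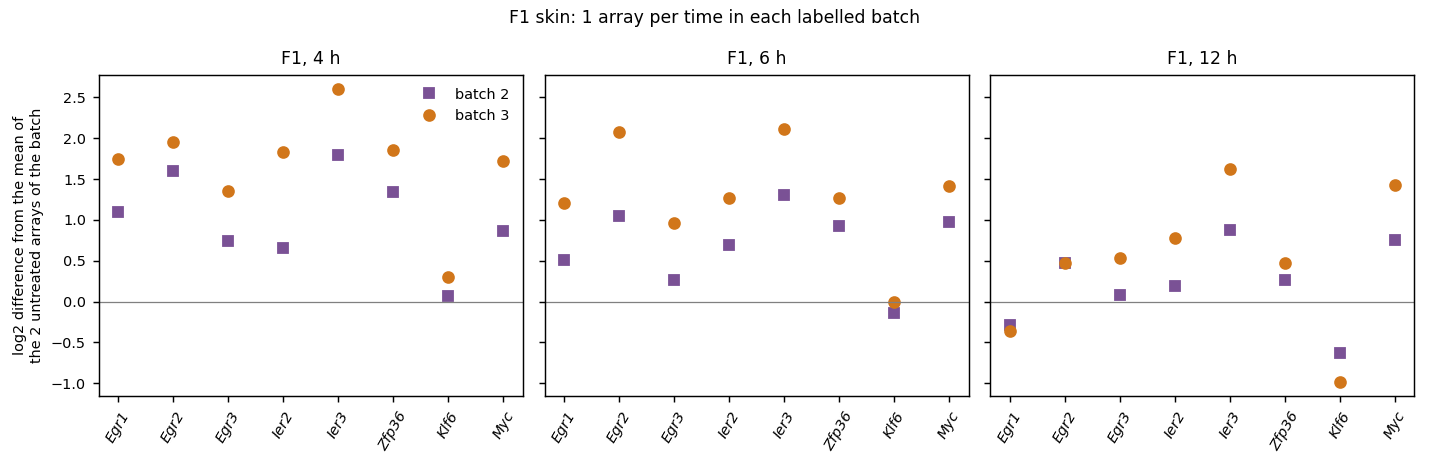
Log2 difference of the F1 array at 4, 6 and 12 h from the mean of the 2 untreated F1 arrays of the same labelled batch (vertical axis) for each of the 8 genes (horizontal axis), with batch 2 as purple squares and batch 3 as orange circles. At 4 and 6 h every batch 3 circle lies above its batch 2 square.

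In SPR skin at 4 h, 5 of the 8 genes were called higher (background 2.57%). Ier3 read 5.77 on both untreated arrays and 7.80 and 7.75 at 4 h, a rise of 2.00 ± 0.27 or 4.01-fold (limma adjusted p = 2.03e-06). Egr1 read 7.94 and 7.88 untreated and 9.52 and 9.59 at 4 h, a rise of 1.65 ± 0.30 (limma adjusted p = 0.000167). Egr2, Zfp36 and Ier2 rose by 1.57, 1.36 and 1.17 (limma adjusted p = 0.0103, 0.00027 and 0.000725). For each of the 8 genes, with Egr3 and Klf6 that were not called, both 4 h arrays lay above both untreated ones. How many of all genes show this order was not counted. Myc read 8.89 and 9.03 untreated and 10.1 and 10.0 at 4 h, a change of 1.09 ± 0.38 that missed the threshold (limma adjusted p = 0.0722). With the 2 narrow arrays left out the Myc value was the same with an SE of 0.23 and an adjusted p of 0.000887, and 6 of the 8 were called (background 3.11%). Egr3 had a change of 0.83 and Klf6 of 0.28 in either fit, neither called. Fitted on its own arrays alone, SPR had 0 calls at 4 h, and with its narrow array left out as well it had 6. The Egr2 call also missed the threshold when any 1 of the untreated or 4 h arrays was left out (adjusted p = 0.0525 to 0.117), and the Ier2 call without the 4 h replicate 1 (0.99).

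The single SPR arrays at 2 and 6 h lay above both untreated arrays for all 8 genes. At 2 h the largest differences from the untreated mean were 2.06 for Egr1 and 2.03 for Ier3, and at 6 h that of Ier3 was 2.04. These values have no test, and the 8 values at each time come from a single array. The share of all genes above both untreated arrays was not counted.

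At 12 h the SPR results rested on 1 array. The array labelled replicate 1, of narrow range, read 6.69 for Egr1, 6.90 for Egr2, 6.70 for Egr3, 6.81 for Klf6 and 6.90 for Myc, and replicate 2 read 8.28, 9.41, 8.87, 9.19 and 9.60. Keratinocyte markers averaged 7.53 on replicate 1 and 11.4 on replicate 2. With both arrays Klf6 was called lower, by -1.26 ± 0.36 (limma adjusted p = 0.011), as were 15.3% of all genes, although its 12 h and 0 h arrays overlapped. The call was lost after cyclic loess (-0.13) and when either untreated array was left out (adjusted p = 0.0651 and 0.066). Without the narrow arrays the Klf6 change was -0.07 and Ier3 was called higher instead, at 1.44 ± 0.28 (limma adjusted p = 0.00388; background 0.622% higher). Later in SPR, Ier3 read 6.95 and 6.67 at 24 h and 6.82 and 6.88 at 48 h, all above the untreated 5.77, and the changes of 1.04 and 1.07 were not called with all arrays (limma adjusted p = 0.105 and 0.0714) but were called without the narrow ones (adjusted p = 0.0177 at both times; background 0.579% and 0.404% higher). With all arrays no gene of the 8 was called at 24, 48 or 1008 h, against 0.26%, 0.207% and 0% of all genes, and 1, 1 and 0 of the 8 had an unadjusted p under 0.05 in limma. All 8 were called by the F test over times in SPR, as were 35.3% of all genes. With all arrays there were 5 called rises and 1 called fall over the 40 gene and time pairs, and without the narrow arrays 0 falls.

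Across strains, 5 genes (Egr1, Egr2, Ier2, Ier3 and Zfp36) were called higher at 1 time or more in each of FVB, F1 and SPR, Egr3 and Myc in FVB and F1, and Klf6 in none. The share of all genes called higher in every strain was not counted. The first times with replicates differ, 2 h in FVB and 4 h in F1 and SPR, so peak heights are not compared with FVB. At 4 h the SPR change minus the F1 change lay between -0.24 and 0.23 for the 8 genes. None was called and none had an unadjusted p under 0.05 in limma. The 95% interval ran from -1.30 to 0.88 for Egr2, from -0.92 to 0.53 for Ier3 and from -1.22 to 0.81 for Myc, and the intervals of Egr1, Egr3 and Klf6 were -0.56 to 1.02, -1.15 to 0.74 and -0.86 to 1.06. For Egr1, Egr2, Egr3, Klf6 and Myc a difference of 1 log2 unit lies within the interval. At 6 h the F1 change minus the FVB change lay between -0.75 (Egr3, interval -1.60 to 0.10) and 0.20 (Zfp36, interval -0.40 to 0.81), again with none called and none at an unadjusted p under 0.05.

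Of 120 differences between strains, 4 were called in limma, all at 12 h and all lower in SPR. The changes in SPR were below those in FVB by 1.92 for Egr2 (-0.89 against 1.03), 1.94 for Egr3 (-0.80 against 1.14) and 1.99 for Myc (-0.71 against 1.28), with adjusted p = 0.0106, 0.00471 and 0.00594 and a background of 13.6% lower. Myc was also lower in SPR than in F1, by 1.80 (-0.71 against 1.09; adjusted p = 0.039; background 5.27% lower). All 4 rested on the narrow SPR array: without the narrow arrays the differences were -0.67, -0.85, -0.64 and -0.44, and none of 120 was called, with 13 at an unadjusted p under 0.05 in limma. After cyclic loess none was called either. The Egr2 difference from FVB was also not called without the 2 liver-rich FVB controls, at -1.63.

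Most other immediate early genes rose in FVB at 2 h as well. Of 27 other immediate early genes measured, 19 were called higher and 0 lower in FVB at 2 h, with a median change of 1.48 against 0.02 over all genes. Nr4a3 and Nr4a1, orphan nuclear receptors, rose by 3.84 and 3.15, Arc, known from synapses, by 3.64, and Atf3, a stress-induced bZIP factor, by 2.76 (limma adjusted p = 3.36e-12, 6.12e-06, 3.88e-13 and 7.75e-08). At 6 h 11 were higher, led by Nr4a3 at 2.57, Arc at 2.37, Plk3 at 1.69 and Csrnp1 at 1.54, and 1, Fosb, a partner of Jun in AP-1, was lower. At 4 h 13 were higher in F1, with Nr4a3 at 3.46, Arc at 3.08, Nr4a1 at 2.29 and Junb, an AP-1 subunit, at 1.73, and 7 in SPR, with Nr4a3 at 2.98, Nr4a1 at 1.97, Junb at 1.77 and Csrnp1 at 1.63. In SPR without the narrow arrays the count was 10. The F1 count was 6 without the batch 3 array at 4 h. Of 5 measured genes that act upstream of or bind to Egr proteins (Nab1, Nab2, Srf, Elk1 and Elk4), none was called at any time. Srf, the serum response factor gene, was nearest, at 0.99 ± 0.19 in FVB at 2 h (limma adjusted p = 0.000255) and 0.89 in F1 at 4 h, both under the fold threshold.

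Genes that Myc is known to activate were also raised in FVB. Of 16 such genes of growth and ribosome production, 5 were called higher in FVB at 2 h, 12 at 6 h and 12 at 12 h, with median changes of 0.61, 1.29 and 1.29, and 0 were lower. Odc1, the rate-limiting enzyme of polyamine synthesis, had changes of 2.45 ± 0.33 and 2.73 ± 0.33 at 2 and 6 h (limma adjusted p = 3.52e-07 and 2.16e-08). Gnl3, a nucleolar GTPase, rose by 1.62 and 1.69, Nop56, a small nucleolar RNP protein, by 1.24 and 1.76, Nop58 of the same complex by 1.33 at 2 h and Rrs1, a ribosome assembly factor, by 1.99 at 6 h. All genes called higher at these times came to 3.6%, 6.45% and 5.46%, and the difference between the times' counts was not tested. Without the 2 liver-rich controls 2, 7 and 8 of the 16 were called, against 1.97%, 4.31% and 3.53% of all genes. At 4 h 9 of 16 were higher in F1, led by Odc1 at 2.29, and 5 in SPR, led by Odc1 at 1.48. Among 11 partners and antagonists of Myc, Mxd1, which competes with Myc for Max, rose by 1.99 in FVB at 2 h and 1.80 at 6 h, and by 1.21 in F1 at 4 h. Mxd4, of the same family, fell by 1.07 and 1.10 in FVB at 2 and 6 h, by 1.65 in F1 at 4 h and by 1.38 in SPR at 4 h. Mycl, a relative of Myc, was lower by -1.62 in FVB at 6 h, -1.63 in F1 at 4 h and -1.65 in SPR at 4 h.

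Messengers that tristetraprolin is known to bind were high at 2 h, when Zfp36 was highest, and at 6 h, when it had fallen in part. Of 12 such genes, 11 were called higher in FVB at 2 h and all 12 at 6 h, with median changes of 3.11 and 2.96. All genes called higher at these times came to 3.6% and 6.45%. Zfp36 itself was still 0.89 above 0 h at 6 h (limma adjusted p = 0.000937), under the fold threshold. Cxcl2 and Cxcl1, neutrophil chemokines, had changes of 5.78 and 4.22 at 2 h and of 4.35 and 3.26 at 6 h. Il6, an inflammatory cytokine, had changes of 5.68 and 3.47, Il1b 4.16 at 2 h, and Ccl3, a macrophage chemokine, 4.92 at 6 h. In F1 12 and in SPR 10 were higher at 4 h (background 5.46% and 2.57%), led by Cxcl2 at 5.23 and 4.43. Within the tristetraprolin family, Zfp36l1 rose by 1.47 ± 0.29 in FVB at 2 h (limma adjusted p = 0.000286), and neither Zfp36l2 nor Zfp36l3 was called then.

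**Figure D4:**
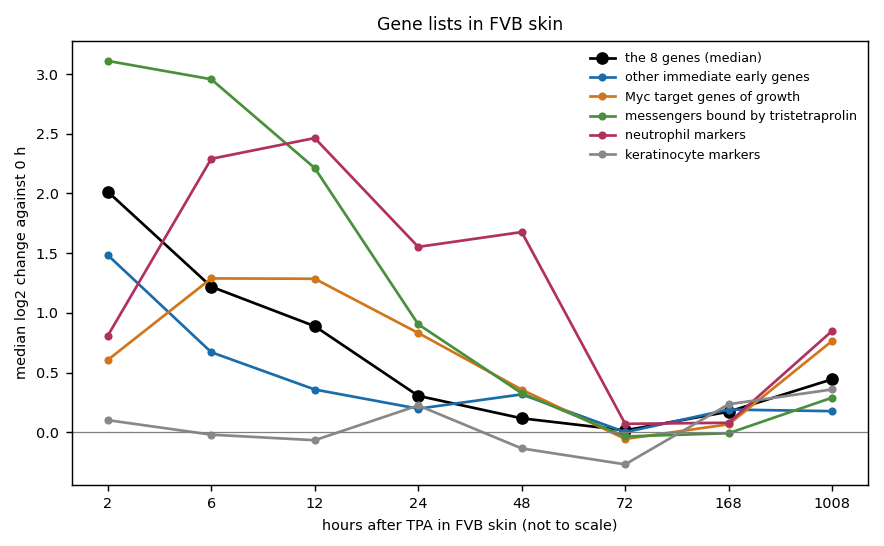
Median log2 change against untreated FVB skin (vertical axis) of the 8 genes (black) and of 5 gene lists (colours) at each time (horizontal axis, not to scale). The 8 genes and the other immediate early genes are highest at 2 h, the Myc targets at 6 and 12 h and the neutrophil markers at 12 h, and the keratinocyte markers stay between -0.27 and 0.36.

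Neutrophil markers rose over the same hours. Of 7 measured neutrophil markers, 2 were called higher in FVB at 2 h, 6 at 6 h and 5 at 12 h, and their array means were 5.58 to 5.61 at 0 h, 5.85 to 7.52 at 2 h, 7.85 to 8.52 at 6 h and 7.96 to 8.63 at 12 h, when 1 marker was lower. Cxcr2, the chemokine receptor of neutrophils, had changes of 3.14 and 5.41 at 2 and 6 h, S100a9 of 3.91, S100a8 of 3.44 and Retnlg of 2.29 at 6 h. At 4 h, 4 were higher in F1 and 3 in SPR (background 5.46% and 2.57%). Of 8 keratinocyte markers none was called at 2 h. Among the other lists at 2 h in FVB, 2 of 5 Langerhans cell and 1 of 8 macrophage markers were called higher, and 0 of 8 fibroblast, 0 of 7 endothelial, 0 of 6 mast cell, 0 of 6 T lymphocyte, 0 of 7 skeletal muscle and 0 of 6 adipocyte markers were called. The Langerhans cell list averaged 10.3 to 10.4 at 2 h against 9.17 to 9.47, and the T lymphocyte list 6.86 to 7.06 against 7.10 to 8.06. At 6 h, 2 Langerhans cell, 2 keratinocyte, 1 endothelial and 1 macrophage markers were higher, and 2 mast cell, 1 fibroblast and 1 keratinocyte markers were lower, with a fibroblast median of -1.14. At 12 h, 5 of 6 T lymphocyte, 3 of 8 fibroblast, 2 of 6 mast cell and 2 of 8 keratinocyte markers were lower, and 2 macrophage and 1 fibroblast markers higher. Over all genes, 3.6%, 6.45% and 5.46% were called higher in FVB at 2, 6 and 12 h, and 3.08%, 5.88% and 4.94% lower. The part of these markers' change in the values of the 8 genes was not tested. The 11 liver transcripts were called lower in 7 cases at 2 h, beside their high level on 2 of the 3 untreated arrays.

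Other genes followed the 8 closely over the FVB course. Over the 9 group means, the gene most like Egr1 among 7551 candidates was Kdm6b, a histone demethylase, with a Pearson r of 0.978 (0.927 over 10 F1 group means). For Ier2 it was Junb, at 0.993 (0.958 in F1), for Zfp36 Apold1, an early gene of endothelium, at 0.993 (0.933), and for Myc Il23a, a cytokine subunit, at 0.988 (0.315 in F1). For Egr2 it was N4bp1, at 0.99 (0.75), for Egr3 Adamts1, a secreted protease, at 0.965 (0.832), for Ier3 Shb, an adaptor protein, at 0.987 (0.924), and for Klf6 Sgms1, a sphingomyelin synthase, at 0.966 (0.824). The next, with r in FVB and then in F1, were Slc4a11 (0.967, 0.428) and Maff (0.965, 0.913) for Egr1, and Cldn4 (0.984, 0.933) and Olr1 (0.98, 0.868) for Egr2. For Egr3 they were Cldn4 (0.962, 0.945) and N4bp1 (0.961, 0.372), and for Ier2 Hdc (0.983, 0.746) and Sertad1 (0.982, 0.567). For Ier3 they were Trem1 (0.985, 0.687) and Donson (0.984, 0.809), and for Zfp36 Ptx3 (0.99, 0.899) and Rnf24 (0.988, 0.759). For Klf6 they were R3hcc1l (0.961, 0.437) and Spry1 (0.954, 0.9), and for Myc Cxcl1 (0.987, 0.851) and Socs3 (0.986, 0.905). Among the 8 themselves, Egr1 was most like Zfp36, at 0.95 in FVB and 0.955 in F1, and the lowest r was that of Ier3 and Klf6, at 0.339 and 0.4. These values describe group means that share the 0 h arrays and the normalisation, and carry no p.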

How the data were processed

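RNA from 69 dorsal skin samples was hybridised to Affymetrix arrays. The authors deposited log2 expression values for 35556 probe sets, and the submitters' processing notes name RMA, which corrects background, normalises between arrays and summarises probes. Whether batches were adjusted is not stated in the labels. Probe sets with 1 gene symbol in the platform annotation were kept (21218; 1881 had several, 12457 none) and the one with the highest mean was used per gene. Groups, hours and batches are those of the labels.

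One limma 3.58.1 model in R 4.3.3 (lmFit, eBayes) held 27 group means and a term for batch 3 against 2, with 38 residual degrees of freedom; all tests were two-sided, and the code was tested on simulated arrays. Where an alternative leaves a lone array in a group, its spread is taken to equal the pooled one. The 8 genes, the 17 gene lists and the alternatives were chosen with earlier results of these data known, so their counts are descriptions. All 8 genes are named; list members named are up to 4 with the largest called change at 2 and 6 h in FVB and 4 h in F1 and SPR, with Zfp36l1, Fosb, Srf and the regulators named after their values were seen. For similarity the rule named 9 F1 group means, and 10 were present. Centring arrays on their medians moved the median change of all genes by up to 0.18 (FVB at 2 h). Other settings are in the closing section.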

Additional observations from a re-analysis of the deposited data

Results flagged for a closer look

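Dixon's test was applied to the 8 genes in the groups of 4 to 10 arrays, 16 cases in all, of which chance alone would flag about 1 in 20. It picked out the F1 array labelled 0 h replicate 2 in 2 of them: Zfp36 read 7.629 on it, against 7.904 to 7.952 on the other 3 arrays, and Klf6 read 9.811, against 9.619 to 9.641. Both values enter the F1 changes above; without that array the calls of Egr3 at 4 h and Myc at 12 h were lost.

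A test of the difference between strains was called for 4 results, the SPR change minus the FVB change at 12 h for Egr2 (-1.92), Egr3 (-1.94) and Myc (-1.99), and the SPR change minus the F1 change at 12 h for Myc (-1.80). None was called without the narrow SPR array.

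Arrays to which the labels give no strain entered no comparison. Array 1, labelled 2 h, had 7 of the 8 genes above the highest of the 9 untreated arrays of all strains, array 2, labelled 6 h, had 8, and array 3, with no time, had 7. Klf6 was the exception on arrays 1 and 3, at 9.38 and 9.72 against 9.81. Egr1 read 9.66, 9.51 and 9.90 on the 3 arrays, against at most 8.41 untreated. How many of all genes lay above the untreated arrays was not counted.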

How the results depend on the processing

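Of 281 counts of calls recomputed under 16 settings, 30 moved by more than 1.5 times. Without a fold threshold there were 26 called changes in FVB (17 reported), 8 between successive times (4) and 1 rise in SPR at 12 h (0). After cyclic loess 0 strain differences (4), 1 rise in F1 at 12 h (2) and 1 in SPR at 12 h were called, and after median centring also 1 in SPR at 12 h. Without the narrow arrays it was 0 strain differences and 1 rise in SPR at 12 h. Without the 2 liver-rich FVB controls, 1 rise at 12 h (4) and 7 Myc targets at 6 h (12) were called. Each strain fitted alone gave 0 changes, 0 rises at 4 h, 0 F tests and 0 other immediate early genes at 4 h in SPR; with its narrow array left out as well (chosen after seeing the data) it gave 1 rise at 12 h and 11 other immediate early genes at 4 h (7). On batch 2 alone, F1 had 1 change (13), 0 F tests (7), rises of 1, 0 and 0 genes at 4, 6 and 12 h (7, 4 and 2) and 2 other immediate early genes (13), and SPR 1 F test (8); with the narrow arrays also left out (likewise added), F1 had 6 changes, rises of 4, 2 and 0 and 8 other immediate early genes, and SPR 1 rise at 12 h. Each SPR rise at 12 h found without the narrow array rests on 1 array. No called value changed sign, and 38 values without a call did.

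Leaving out each of the 66 arrays in turn gave 4 to 13 changes in SPR, 0 to 12 strain differences, 3 to 6 genes risen in every strain (5 reported), 2 to 4 rises in FVB at 12 h, 4 to 7, 1 to 6 and 1 to 2 in F1 at 4, 6 and 12 h, 3 to 6 and 0 to 1 in SPR at 4 and 12 h, and 6 to 14 and 3 to 10 other immediate early genes in F1 and SPR at 4 h. The highest counts of SPR changes and of strain differences came without the SPR 12 h replicate 2, which leaves only the narrow array at that time; strain differences numbered 0 without the narrow one and 2 without the SPR 0 h replicate 2. The lowest count of genes risen in every strain, of SPR rises at 4 h and of its other immediate early genes came without the SPR 4 h replicate 1, and the latter numbered 4 without the SPR 0 h replicate 2. Changes in FVB (15 to 18), F1 (10 to 15) and successive times (3 to 4) stayed within 1.5 times.

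Replicate numbers did not pair FVB arrays: deviations from group means correlated at a median r of -0.0087 in 108 same-numbered pairs and -0.0092 in 216 others. With the number as a block there were 17 changes in FVB, 14 in F1, 6 in SPR, 3 between successive times and 3 between strains; Myc was lost from 12 to 24 h (adjusted p = 0.0593) and in SPR minus F1 at 12 h (adjusted p = 0.0631), the F test in F1 called 6 genes in place of 7, and no other call of a change was lost. Precision is limited by the 1 to 6 arrays per group.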
